A study of Mus musculus with 13 samples.

Results

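The 9 genes described here encode products of the growing oocyte: the zona pellucida proteins *Zp1*, *Zp2* and *Zp3*, the secreted growth factors *Gdf9* and *Bmp15*, the receptor *Kit*, and the oocyte-restricted genes *Oosp1*, *Padi6* and *Nlrp5*. They were chosen by name for their known roles in the growing oocyte, although *Kit* also acts earlier, in primordial germ cells, and all 9 were found among the 55335 genes of the count table, of which 22038 had at least 1 count. The question was which of them are already transcribed in mouse fetal oocytes at E17.5, before follicles form, and whether their levels changed when the glucocorticoid receptor (GR, gene *Nr3c1*) was deleted.

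One 3′ Tag-Seq library was made per embryo from germ cells sorted by *Pou5f1*-GFP fluorescence out of E17.5 ovaries. WT (n = 3) and KO (n = 3) embryos came from crosses of heterozygotes for a constitutive *Nr3c1* null allele, which lacks the receptor in every tissue and was derived from a floxed exon 3 with β-actin Cre. The flox controls (n = 3), floxed at *Nr3c1* without Cre, and the cKO embryos (n = 4), floxed with *Pou5f1*-CreERT2 came from a second kind of cross, whose dams were injected with tamoxifen (125 μg/g) at E10.5, controls included. All 4 groups carried the *Pou5f1*-GFP transgene, and the inducible Cre acts where *Pou5f1* is active at the time of tamoxifen, so deletion depends on recombination in the germ cells of that stage. The WT and flox libraries are together called GR-intact (6 libraries).

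A mouse oocyte halts in meiotic prophase before birth and is then enclosed by granulosa cells, and it enters growth only after a primordial follicle is activated. During growth it secretes its zona pellucida, an extracellular coat built from ZP filaments that later binds sperm, and it sends GDF9 and BMP15 to the surrounding granulosa cells. KIT on the oocyte surface receives KIT ligand from the somatic cells. The transcription factors FIGLA and NOBOX are known to activate many of these genes, and FIGLA acts through E-boxes, short motifs with the letters CANNTG.

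RefSeq (GRCm38.p6) promoter windows, which run from 250 bases before to 50 bases after a start site, were present for 6 of the 9 genes (8 windows), and not for *Zp1*, *Zp2* and *Gdf9*. The windows of the genes with the highest levels, *Kit* and *Nlrp5*, and of *Zp3* and *Bmp15*, which had few or no counts, are shown side by side. Capitals mark matches to the E-box letters CANNTG, a palindrome and so the same on both strands.
Kit, chr5:75574737-75575036, plus strand: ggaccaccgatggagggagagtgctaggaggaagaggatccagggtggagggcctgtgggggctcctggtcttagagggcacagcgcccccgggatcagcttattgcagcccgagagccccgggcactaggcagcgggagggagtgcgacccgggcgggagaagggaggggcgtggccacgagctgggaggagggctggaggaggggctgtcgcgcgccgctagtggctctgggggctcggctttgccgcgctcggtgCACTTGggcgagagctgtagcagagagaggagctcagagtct
Nlrp5, chr7:23385639-23385938, plus strand: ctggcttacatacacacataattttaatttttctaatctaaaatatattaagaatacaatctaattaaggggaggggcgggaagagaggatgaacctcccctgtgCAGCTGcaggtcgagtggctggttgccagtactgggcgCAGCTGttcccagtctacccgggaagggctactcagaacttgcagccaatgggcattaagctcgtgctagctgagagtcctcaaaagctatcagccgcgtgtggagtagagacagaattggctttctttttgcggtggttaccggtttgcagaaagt
Zp3, chr5:135979855-135980154, plus strand: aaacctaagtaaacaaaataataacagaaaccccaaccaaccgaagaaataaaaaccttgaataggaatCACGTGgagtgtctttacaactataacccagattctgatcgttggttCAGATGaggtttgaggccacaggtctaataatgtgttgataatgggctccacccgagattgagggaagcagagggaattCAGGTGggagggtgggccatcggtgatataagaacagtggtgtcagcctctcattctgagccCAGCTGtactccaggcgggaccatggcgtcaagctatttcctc
Bmp15, chrX:6320675-6320974, minus strand: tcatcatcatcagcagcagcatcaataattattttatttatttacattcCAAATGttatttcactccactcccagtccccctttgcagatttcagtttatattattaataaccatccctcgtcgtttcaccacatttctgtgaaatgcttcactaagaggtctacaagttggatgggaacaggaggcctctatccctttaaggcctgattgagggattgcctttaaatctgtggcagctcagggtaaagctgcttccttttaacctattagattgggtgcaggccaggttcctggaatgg
The *Zp3* window held 4 E-box matches, the first letter of CACGTG lying at −181 from the start site, of CAGATG at −134, of CAGGTG at −55 and of CAGCTG at 7. The *Nlrp5* window shown held CAGCTG at −145 and −107, and a second *Nlrp5* window, at another start site and not printed, held CACTTG at −186 and CAAATG at −172, while *Kit* held 1 match, CACTTG at 8, and *Bmp15* held 1, CAAATG at −201. The windows of *Oosp1* and *Padi6*, not printed, held 5 and 2 matches. The E-box letters are common, being present in 72.3% of the 32851 promoter windows, with a mean of 1.39 matches per window. The letters TAATTG, a motif bound by NOBOX and searched on both strands, were found among these genes only in the *Padi6* window (8.0% of all windows). AGAACA, a glucocorticoid receptor half-site, was found on either strand only in the windows of *Zp3*, at −25, and *Oosp1*, at −181 (19% of all windows). These matches describe letters and no binding was measured.

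The libraries held 2048706 to 3674989 counts assigned to genes, so that 1 count was worth 0.273 to 0.484 CPM (counts scaled to the TMM-corrected library size). A gene with 0 counts may therefore lie anywhere up to 3 counts, or 0.820 to 1.45 CPM, and this limit covers counting error only. Germ cell markers were abundant in every library, with a summed level of 11182 to 17945 CPM over 10 genes, all 10 counted in every GR-intact library. For 15 somatic ovary markers the sum was 77.5 to 180 CPM, and 5 endothelial markers to 8.74 to 103 CPM. The 13 blood markers summed to 294 to 1309 CPM in flox and to 23.6 to 242 CPM in the other groups, with *Hbb-y*, *Hba-x* and *Hbb-bh1* at 0 in all 13 libraries. *Nr3c1* itself stood at 44.5 ± 15.3 CPM in WT and 44.5 ± 25.0 in KO (SD, n = 3 each), and at 65.3 ± 33.5 in flox (n = 3) and 52.4 ± 18.1 in cKO (n = 4). Because tags were counted over the whole gene, this level does not test the loss of exon 3.

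Expression at E17.5 was strongly uneven among the 9 genes. *Kit*, *Nlrp5* and *Padi6* were counted in all 6 GR-intact libraries, *Zp2* and *Gdf9* in 5 of 6, *Zp3* in 4, *Oosp1* in 2 and *Zp1* in 1, and *Bmp15* in none. Per kilobase of merged exons, the mean GR-intact level was 35.5 CPM for *Kit* and 27.1 for *Nlrp5*, followed by *Zp2* at 5.13, *Gdf9* at 3.22, *Zp3* at 2.71 and *Padi6* at 1.74. *Oosp1* and *Zp1* were at 0.165 and 0.110 CPM per kilobase and *Bmp15* at 0. These levels per kilobase were an alternative chosen after the data were seen. Tags were counted over whole genes, introns included, so the length of exons does not match what was counted. A 3′ tag protocol reads mostly transcript ends, so the scale planned for the order was the mean GR-intact level without length. Without length, the mean was 317 CPM for *Kit*, 132 for *Nlrp5*, 13.98 for *Zp2* and 6.54 for *Gdf9*. *Padi6* followed at 4.41 CPM, *Zp3* at 3.58, *Zp1* at 0.219, *Oosp1* at 0.161 and *Bmp15* at 0. On that scale *Padi6* came before *Zp3* and *Zp1* before *Oosp1*. Ranges of CPM over the 6 libraries overlapped between every gene and the next in the order of mean CPM. Such ranges leave out that all genes were counted in the same libraries. Within each of the 6 libraries *Kit* exceeded *Nlrp5*, most narrowly in WT replicate 2 (546 and 461 CPM).

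**Figure D1:**
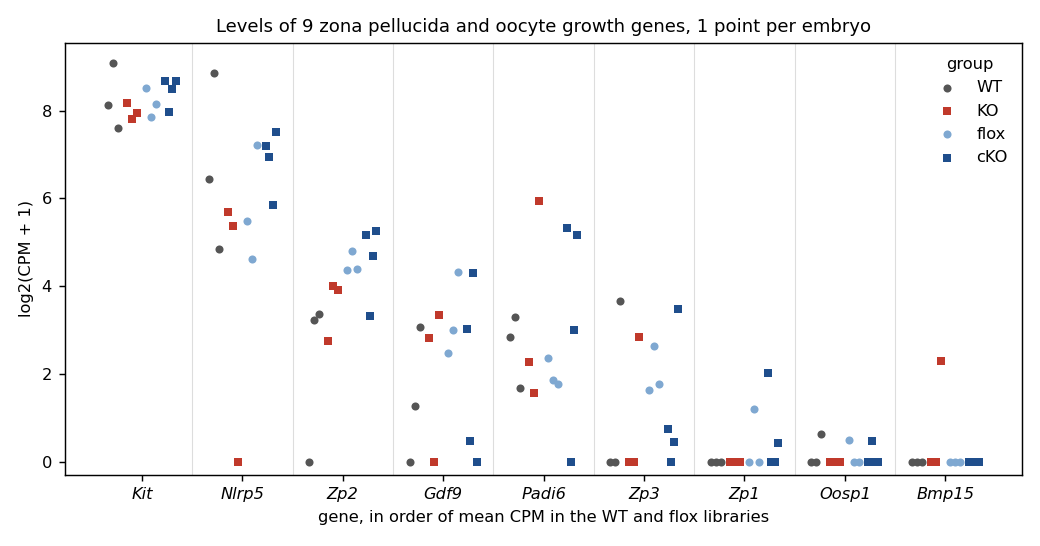
Level of each of the 9 genes as log2(CPM + 1), with 1 point per embryo and the 4 groups side by side; genes are ordered by their mean CPM in the WT and flox libraries. *Kit* sat between 194 and 546 CPM in all 13 libraries, whereas *Zp1*, *Oosp1* and *Bmp15* were at 0 in most.

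Among the receptors and ligands, *Kit* (5:75574916-75656722, plus strand, mm10) was the best measured. Its level was 279, 546 and 194 CPM in WT replicates 1 to 3 and 287, 224 and 247 CPM in KO. It was 364, 232 and 285 CPM in flox replicates 1 to 3 and 410, 248, 357 and 405 CPM in cKO replicates 1 to 4. The WT libraries held both the highest and the lowest value, and the groups overlapped in both crosses. *Kit* exceeded 97.1% of the 15673 protein-coding genes with a count, on the scale of CPM, and its SD within groups was 32.8% of its mean, the lowest of the 6 genes that passed the filter on low counts. Mast cells and blood progenitors also carry KIT: the mast cell genes *Cma1* and *Cpa3* had 0 to 54 and 0 to 39 counts per library, against 463 to 1219 for *Kit*, and their part in the *Kit* level was not tested. The ligand gene *Kitl*, a product of somatic cells, stood at 11.3 ± 9.99 CPM (SD, n = 6).

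*Gdf9* (11:53431023-53437904, plus strand) encodes a growth factor needed for follicles to pass the primary stage. It had 0, 3 and 27 counts in WT, 16, 0 and 21 in KO, 11, 16 and 39 in flox, and 21, 1, 51 and 0 in cKO. Every flox library held counts, while each other group had 1 library at 0. *Bmp15* (X:6314107-6320721, minus strand), its close relative on the X chromosome, had 9 counts in KO replicate 3 and 0 in the other 12 libraries. In bulk sorted cells, fewer cells expressing a gene and less RNA in each cell cannot be told apart.

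The zona genes followed separate patterns. *Zp2* (7:120126772-120145291, minus strand), whose protein takes part in sperm binding, had 0, 18 and 34 counts in WT and 15, 31 and 32 in KO. It had 47, 61 and 41 counts in flox and 104, 23, 68 and 107 in cKO. *Zp2* was thus at 0 in 1 of 13 libraries, WT replicate 1, and higher in every flox library than in every WT library. *Zp3* (5:135980099-135988624, plus strand), the partner of ZP2 in the filament, had 0, 0 and 43 counts in WT, 0, 0 and 14 in KO, 5, 12 and 5 in flox and 2, 0, 1 and 29 in cKO. In WT and KO all *Zp3* counts came from 1 library each. *Zp1* (19:10914287-10920632, minus strand), which cross-links the filaments, had 3 counts in flox replicate 2, 9 in cKO replicate 1, 1 in cKO replicate 4 and 0 in the other 10 libraries.

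Of the intracellular and oocyte-restricted genes, *Nlrp5* (7:23385889-23441922, plus strand), also called MATER, encodes a core protein of the subcortical maternal complex, which is needed for the embryo to pass its first cleavages. Its level was 85.4, 461 and 27.9 CPM in WT replicates 1 to 3 and 50.7, 40.7 and 0 CPM in KO. It was 43.5, 23.6 and 148 CPM in flox replicates 1 to 3 and 145, 122, 56.6 and 180 CPM in cKO replicates 1 to 4. WT replicate 2 (985 counts) stood far above the others and KO replicate 3 had none, so that *Nlrp5* varied widely inside groups while its mean exceeded 89.5% of protein-coding genes in CPM.

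*Padi6* (4:140727355-140742643, minus strand) encodes a peptidylarginine deiminase-family protein of the oocyte's cytoplasmic lattices. It had 14, 19 and 8 counts in WT and 10, 4 and 139 in KO. It had 10, 6 and 5 counts in flox and 116, 0, 19 and 100 in cKO. The 3 libraries with 100 or more counts were all KO or cKO, but KO replicates 1 and 2 fell among or below WT. In the conditional cross, cKO replicate 3 (6.94 CPM) also lay above every flox library (2.42 to 4.18 CPM), while cKO replicate 2, with 0 counts, lay below them. The groups thus overlapped in both crosses, in the conditional one only through cKO replicate 2. *Oosp1* (19:11667460-11691150, minus strand), an oocyte-secreted protein gene, had 2 counts in WT replicate 3, 1 in flox replicate 1, 1 in cKO replicate 2 and 0 elsewhere.

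The spread between embryos was far larger than counting error for most of these genes. A wide spread was not particular to them: over the 13086 genes tested, edgeR's common coefficient of variation beyond counting error was 0.84. Each embryo gave 1 library, so differences between embryos and noise of single libraries cannot be told apart. Within groups, the variance of the counts was 340 times the mean for *Nlrp5*, 85.2 times for *Kit* and 71.7 times for *Padi6*, and 18.9 for *Gdf9*, 18.3 for *Zp3* and 10.3 for *Zp2*, where counting error alone gives a ratio near 1. As a share of the mean, the SD within groups of CPM was 48.5% for *Zp2*, 110% for *Gdf9*, 112% for *Nlrp5*, 146% for *Padi6* and 156% for *Zp3*. The number of the 9 genes with a count ran from 3 in WT replicate 1 to 7 in WT replicate 3, flox replicates 1 and 2 and cKO replicate 1. Summed over the 7 genes other than *Kit* and *Nlrp5*, the libraries held 14 counts (WT replicate 1) to 252 counts (cKO replicate 1).

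**Figure D2:**
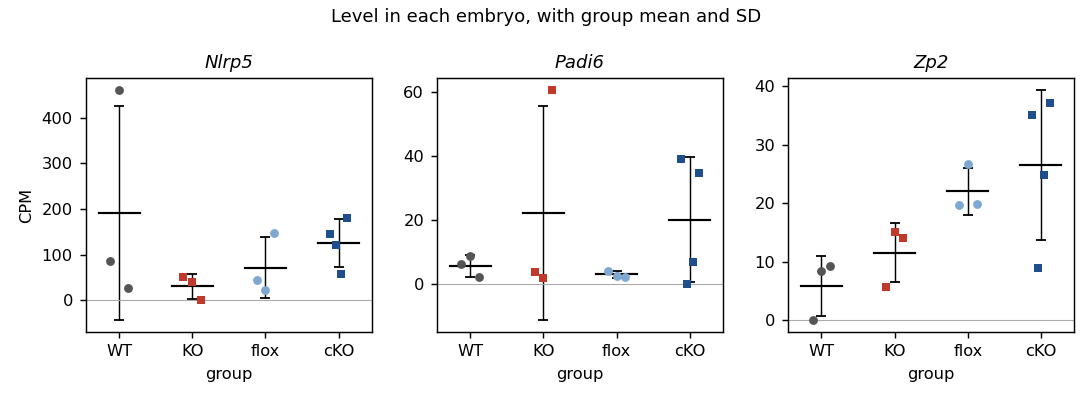
CPM of *Nlrp5*, *Padi6* and *Zp2* in each embryo (points), with the group mean (horizontal line) and SD (error bar) for WT, KO and flox (3 embryos each) and cKO (4 embryos). A single embryo set the group mean for *Nlrp5* in WT (461 CPM) and for *Padi6* in KO (60.7 CPM), while the flox points of *Zp2* lay above all WT points.

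The constitutive deletion was tested by KO against WT. No gene among the 9 changed at an adjusted p of at most 0.05 in edgeR's quasi-likelihood test, where 6 of the 9 passed the filter (not *Zp1*, *Oosp1* and *Bmp15*) and 0% of the 13086 genes tested were called. *Nlrp5* was the only one of the 6 under an unadjusted p of 0.05, a level that 5.8% of all genes tested reached. Among the 6, limma voom called none, and DESeq2 called none of those to which it gave a p-value. Mean *Nlrp5* was 191 ± 235 CPM in WT and 30.5 ± 26.8 in KO (SD, n = 3 each). The fitted log2 fold change was −2.64 (SE 0.93, 95% interval −4.57 to −0.72; edgeR adjusted p = 0.850). The difference rested mainly on WT replicate 2, without which it was −0.88 (edgeR adjusted p = 0.985), and without KO replicate 3 it was −2.07. When every gene with at least 1 count entered the edgeR fit, *Nlrp5* was called (log2 fold change −2.62, adjusted p = 2.25e-05). The exact two-sided permutation test over the 6 libraries gave p = 0.3 for *Nlrp5*, where the smallest p possible is 0.1.

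The other 5 genes had intervals that included 0. *Kit* differed by −0.42 (SE 0.33, interval −1.12 to 0.27) on the log2 scale, the narrowest interval of the 6, and the sign turned to 0.11 without WT replicate 2. *Padi6* differed by 1.95 (SE 1.43), which became −0.98 without KO replicate 3. *Zp2* differed by 0.95 (SE 1.06), *Gdf9* by 0.77 (SE 1.91) and *Zp3* by −0.94 (SE 2.36), intervals too wide to show a direction at this depth and number of embryos. None of the 9 genes had groups apart in CPM, whereas 9.41% of the genes tested did. The summed endothelial markers were apart in this comparison, at 35.8 to 47.5 CPM in WT and 8.74 to 30.1 in KO. That sum was mainly *Pecam1*, whose log2 fold change was −1.39 (SE 0.71), not called. *Tek*, the only other endothelial marker tested, went the other way (0.61, SE 1.47). *Cdh5* was lower in KO (mean 7.28 CPM in WT, 1.27 in KO), and *Kdr* and *Emcn* were near 0 in both groups. The sum thus does not show a fall shared by all the endothelial markers. Of the 13 somatic markers tested, 2, *Bmp2* and *Nr2f2*, were lower in KO at an unadjusted p under 0.05 in edgeR, with neither called. The summed somatic markers overlapped, at 122 to 165 CPM in WT and 77.5 to 132 in KO, and the part of these cells in the values above was not tested.

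The germ cell deletion was tested by cKO against flox, and again none of the 6 genes was called by edgeR or limma voom. DESeq2 called none of those to which it gave a p-value. No gene at all was called by edgeR (0%), and none of the 6 was under an unadjusted p of 0.05, a level that 3.19% of all genes tested reached. *Padi6* had the largest fitted difference, with 20.2 ± 19.6 CPM in cKO (SD, n = 4) and 3.07 ± 0.963 in flox (n = 3). Its log2 fold change was 2.69 (SE 1.44, 95% interval −0.27 to 5.66; edgeR adjusted p = 0.999), and the exact two-sided permutation p was 0.4 (smallest possible 0.0286). *Nlrp5* was at 126 ± 52.1 CPM in cKO and 71.8 ± 67.0 in flox, a difference of 0.81 (SE 0.83, interval −0.91 to 2.53) that was 1.90 without flox replicate 3 and 0.39 without flox replicate 2. *Kit* differed by 0.27 (SE 0.31, interval −0.37 to 0.92), *Zp2* by 0.27 (SE 0.97), *Gdf9* by −0.63 (SE 1.76) and *Zp3* by −0.22 (SE 2.18). Again no gene of the 9 had groups apart in CPM, against 4.91% of all genes tested. Blood marker levels moved with this comparison (88.9 to 193 CPM in cKO, 294 to 1309 in flox), and their part in these values was not tested.

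**Figure D3:**
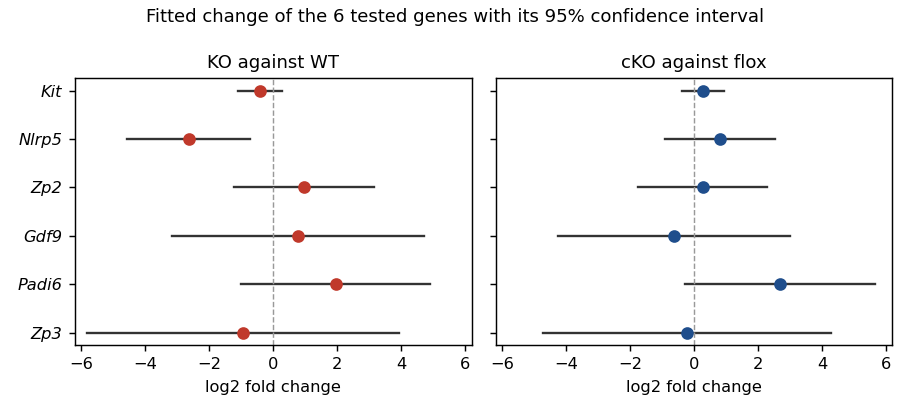
Log2 fold change (points) with its 95% confidence interval (lines) from the edgeR fit for the 6 genes tested, KO against WT on the left and cKO against flox on the right; the dashed line marks 0. Only the *Nlrp5* interval in KO against WT (−4.57 to −0.72) excluded 0, and the *Kit* intervals were the narrowest.

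The effects of both crosses were also averaged and compared. For the average effect, edgeR called no gene of the 9 and 0% of all genes. *Padi6* was under an unadjusted p of 0.05, as were 5.31% of all genes tested, with a log2 fold change of 2.32 (SE 1.01, interval 0.23 to 4.41; edgeR adjusted p = 0.902), which became 0.86 (adjusted p = 0.964) without KO replicate 3. For the difference of the effects (KO minus WT, less cKO minus flox), edgeR again called 0% of all genes. *Nlrp5* alone of the 6 was under an unadjusted p of 0.05 here, as were 4.37% of all genes. Its difference was −3.46 (SE 1.25, interval −6.03 to −0.88; edgeR adjusted p = 1.000), and −1.69 (adjusted p = 1.000) without WT replicate 2.

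Between the controls of the crosses, flox and WT differed in genotype at the floxed allele, in tamoxifen and in cross at once, which cannot be told apart. *Zp2* was the only one of the 9 whose flox and WT libraries did not overlap, with 22 ± 4.02 CPM in flox and 5.90 ± 5.13 in WT (SD, n = 3 each); 8.25% of all genes tested had such groups. Its log2 fold change was 1.88 (SE 1.08; edgeR adjusted p = 0.999), and the exact permutation p of 0.1 is the smallest that 3 against 3 allows. None of the 6 was called by edgeR (0.00764% of all genes, 1 gene, was) or was under an unadjusted p of 0.05 (3.09% of all genes). Blood markers were higher in flox than in WT too (294 to 1309 against 89.8 to 242 CPM), and their part in the *Zp2* difference was not tested.

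Other genes of oocyte growth, from a list of 36 of which 35 were found, gave a similar mixture. Of the 35, 7 were counted in all 6 GR-intact libraries and 8 were at 0 in all 13. The 7 were, chosen for this after their values were seen, the deubiquitinase gene *Uchl1* (859 ± 414 CPM, SD, n = 6, the highest of the list), *Dppa3* (306 ± 84.4), the maternal complex gene *Tle6* (74.1 ± 14.6), the connexin gene *Gja4* (55.0), *Nlrp4f* (35.1), *Zbed3* (24.6) and *Kpna7* (10.9). *Khdc3*, *Nlrp4a*, *Oog1* and *Oog2* were among those at 0 in every library; 75.6% of the *Khdc3* interval is shared with other genes, where reads may not be assigned. The *Oog* and *Nlrp4* families hold close copies, and reads that match several of them may not have been counted, so their counts are uncertain too. None of the 14 tested was called in KO against WT or cKO against flox. Their median log2 fold change was 0.75 in KO against WT and 0.37 in cKO against flox, beside −0.03 and −0.00 over all genes. Between the GR-intact groups, flox against WT, it was 0.45, beside −0.01 over all genes. Some of the 14 were rare, such as *Nlrp4b* with 0 to 21 counts per library and *Npm2* with 0 to 73. Whether these medians differ from those of all genes was not tested.

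**Figure D4:**
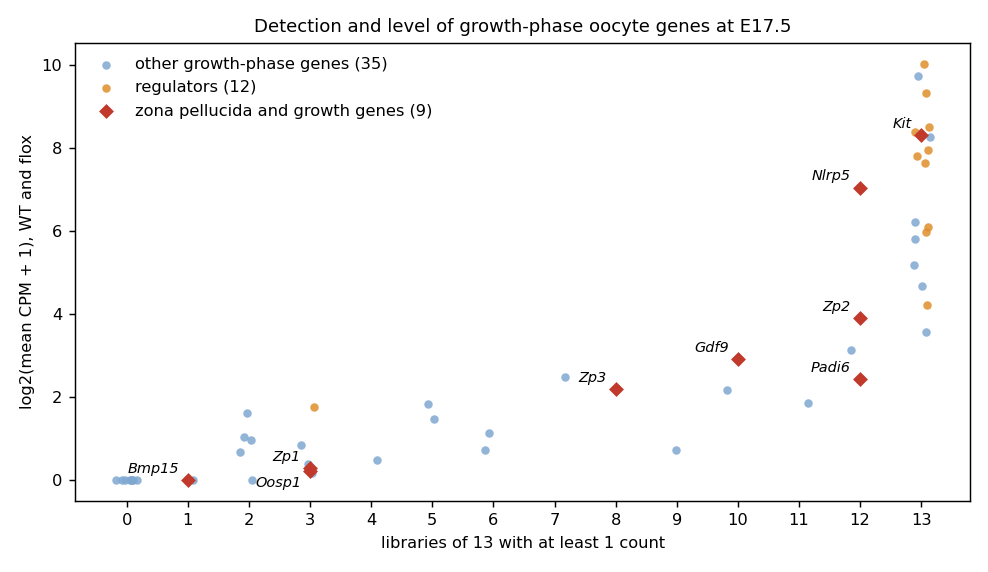
Number of the 13 libraries with at least 1 count (horizontal axis, points spread slightly sideways) against log2 of the mean CPM + 1 in the WT and flox libraries, for the 9 genes (diamonds), 35 other growth-phase genes and 12 regulators. *Kit* lies with most of the regulators at 13 libraries, whereas *Bmp15* was counted in 1 library and *Zp1* and *Oosp1* in 3.

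In that list the lowest unadjusted p-values in KO against WT belonged to *Dppa3* (0.85, SE 0.44), a maternal chromatin factor, *Wee2* (3.53, SE 1.89), an oocyte meiosis kinase, and *Npm2* (−4.46, SE 2.72), a nuclear chaperone 41.9% of whose interval is shared with other genes. None of these was under an unadjusted p of 0.05. In cKO against flox, *Nlrp4b* was under it (5.54, SE 2.62; edgeR adjusted p = 0.999) but had 0 counts in all flox libraries and 1 to 12 in cKO. *Zbed3* (1.48, SE 0.73) and *Uchl1* (−0.67, SE 0.37) came next.

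Most of the known regulators of these genes were well expressed. Of 12 regulators 11 were counted in all 6 GR-intact libraries, led by *Figla* at 1053 ± 359 CPM (SD, n = 6), and *Nobox* was at 223 ± 29.7 CPM. *Tbpl2*, the exception, stood at 2.41 ± 4.60 CPM and was counted in 3 of 13 libraries. None of the 11 tested was called in either comparison, and the medians were −0.03 in both. *Sohlh2*, a germ cell basic helix-loop-helix factor, was the only one under an unadjusted p of 0.05 in KO against WT (1.24, SE 0.46; edgeR adjusted p = 0.850), followed by *Nobox* (0.50, SE 0.35) and *Dynll1* (0.46, SE 0.33). In cKO against flox the lowest p-values belonged to *Tcf3* (−0.78, SE 0.48), *Figla* (−0.42, SE 0.28) and *Nobox* (0.44, SE 0.33), with none under 0.05.

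Of 25 genes of the KIT pathway, which comprise its ligand gene and genes of PI3K and RAS signalling, all but *Kitl* were counted in all 6 GR-intact libraries (24 of 25). *Foxo3*, which holds primordial oocytes dormant, was the highest at 413 ± 106 CPM (SD, n = 6). None of the 25 was called in either comparison, and the medians were −0.10 in KO against WT and 0.10 in cKO against flox. *Rheb*, the GTPase that activates mTORC1, was the only one under an unadjusted p of 0.05 in KO against WT (0.98, SE 0.34; edgeR adjusted p = 0.850). *Cbl* (−1.09, SE 0.56), an adaptor that ubiquitinates KIT, and *Rps6kb1* (−0.75, SE 0.43), the S6 kinase, followed it. In cKO against flox, *Cdkn1b* (−1.09, SE 0.85), *Pik3cd* (−1.05, SE 0.86) and *Rps6* (1.42, SE 1.21) had the lowest p-values, with none under 0.05; *Rps6* has many near-identical pseudogenes, so its count is uncertain.

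The receptors, processing enzyme and SMADs that serve GDF9 and BMP15 were counted although the ligand genes were not abundant. Of 20 genes, 15 were counted in all 6 GR-intact libraries, with *Smad4* the highest at 283 ± 112 CPM (SD, n = 6). None of the 19 tested was called or was under an unadjusted p of 0.05 in either comparison, and the medians were −0.02 and −0.13. The lowest p-values in KO against WT belonged to *Smad9* (3.23, SE 1.97), *Furin* (−0.65, SE 0.46) and *Acvr2b* (−0.48, SE 0.41), and those in cKO against flox to *Smad9* (−3.02, SE 1.74), *Tgfbr1* (−0.42, SE 0.35) and *Smad4* (−0.32, SE 0.32). *Smad9* was rare, with 0 to 71 counts per library.

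The genes whose log2 CPM followed each of the 6 tested genes most closely over the 13 libraries are given as a description only: each is the highest of 13086 correlations, and the libraries share their depth and composition. *Padi6* was followed by the oocyte transcription factor gene *Nobox* (Pearson r = 0.86), then *Acat1* (0.85) and *Slfn9* (0.85). For *Nlrp5* they were *Gm12940* (0.93), *Actr3b* (0.90) and *Use1* (0.89), and for *Kit* they were *Pfdn2* (0.88), *Hmga1b* (0.88, a close copy of *Hmga1* and so uncertain) and *Tnr* (0.84). For *Zp2* they were *Nos1* (0.91), *Nop10* (0.89) and *Tmem219* (0.89), for *Zp3* *Tmbim6* (0.95), *Ces1d* (0.93) and *Pafah1b3* (0.87), and for *Gdf9* *Trim66* (0.91), *Wrap73* (0.90) and *Gm3854* (0.82). No gene among the 9 appeared on another's list, and only *Nobox* belonged to a list described above.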

How the data were processed

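Germ cells from the ovaries of single E17.5 embryos were profiled by 3′ Tag-Seq in 13 libraries. The authors trimmed reads with cutadapt, aligned them to mm10 with STAR 2.6.0 and counted them per gene with featureCounts 1.6.3; raw counts were deposited, and their own tests used edgeR 3.28.1 and limma 3.42.2. The annotation and strand setting are not given in the sources used here. Gene intervals of 54587 of 55335 IDs were identical to GENCODE M21, which gave the symbols, and the deposited length equals the whole interval, introns included.

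Libraries were grouped by the deposited labels. Counts were TMM-scaled, filtered with filterByExpr (at least 10 counts; 13086 genes kept) and fitted with edgeR 4.0.16 over all 4 groups (glmQLFit, glmQLFTest), with Benjamini-Hochberg adjustment over all genes tested and a threshold of 0.05. The exact permutation tests used log2 CPM (prior count 2). R 4.3.3, DESeq2 1.42.0, limma 3.58.1 (voom), scipy 1.17.1 and matplotlib 3.10.9 were used. The edgeR fit was also run on simulated counts for KO against WT. That run had no filterByExpr step, so it does not test the filtered fit as used here. The genes and lists were chosen with earlier results of these data known. Genes outside the 9 were named by a rule: the 3 highest correlations per tested gene, and from each list the highest level, up to 4 genes at 0 and the 3 lowest p-values per comparison. *Tle6*, *Gja4*, *Nlrp4f*, *Kpna7*, *Tbpl2*, *Kitl*, *Cma1*, *Cpa3*, *Bmp2*, *Nr2f2*, *Pecam1*, *Cdh5*, *Tek*, *Kdr*, *Emcn* and the blood markers at 0 fall outside it and were named after their values were seen. Alternatives were RLE scaling, other filters, DESeq2, limma voom, the groups compared alone, a replicate block, and leaving out each library. Levels per kilobase of merged exons were an alternative chosen after seeing the data.

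Replicates are separate embryos. Counts of replicates differed by more than sampling noise in every pair (chi-square per degree of freedom 22.5 to 43.7), so each library counted as 1 sample.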

Additional observations from a re-analysis of the deposited data

Results flagged for a closer look

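In the cKO group, the only one with 4 libraries, 1 embryo lay far above the others for 3 of the 8 genes with a count there (the gap to the nearest library, divided by the range, exceeded Dixon's 95% critical value). Chance alone gives such a gap in about 1 of 20 groups of normally distributed values, a rate that does not hold for these 3 genes, whose other libraries were at or near 0 counts. *Zp3* reached 10.1 CPM (29 counts) in cKO replicate 4 against 0 to 2 counts in the others. *Zp1* reached 3.03 CPM (9 counts) in cKO replicate 1, and *Oosp1* reached 0.392 CPM in cKO replicate 2, which is 1 count and under the limit that a count of 0 allows.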

How the results depend on the processing

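No gene of the 9 was called in KO against WT, cKO against flox, their average, their difference or flox against WT under RLE scaling, DESeq2, limma voom, a fit of the compared groups alone or the replicate block. Not every gene was tested in each of these. DESeq2 gave *Zp3* no p-value in the average, the difference or flox against WT, and the fit of flox and WT alone did not include *Zp3* or *Padi6*. With every gene with at least 1 count in the fit, 1 was called in KO against WT and 1 in the difference of the effects, both times *Nlrp5* (log2 −2.62, adjusted p = 2.25e-05, and −3.46, adjusted p = 4.09e-05 by edgeR), and the calls over all genes rose from 0 to 15 and 8; the cause was not tested. Over the 6 genes and both comparisons, 70 of 72 values from such alternatives kept their direction and side of the threshold. With at least 10 counts required in every library, *Kit* alone of the 9 could be fitted.

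Replicate numbers did not pair the embryos (no same-numbered correlation over 0.1). With the replicate block, *Nlrp5* in KO against WT was −2.91 (edgeR adjusted p = 0.0608), *Zp2* in cKO against flox turned to −0.10, and the number called in any comparison was 0; the calls over all genes rose from 0 to 4 in KO against WT and to 3 in cKO against flox. DESeq2 called 12 and 5 genes in these comparisons.

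Leaving out single libraries gave log2 fold changes from −6.34 (without KO replicate 3) to 5.35 (without WT replicate 3) for *Zp3*, from −0.71 to 0.11 for *Kit* and from −0.98 to 2.50 for *Padi6* in KO against WT. In cKO against flox they gave −3.03 (without cKO replicate 4) to 0.28 for *Zp3*, with 4 of 13 fits above 0, and −1.99 to 0.18 for *Gdf9*. The other 7 ranges kept their sign. The number of genes counted in every GR-intact library rose from 3 to 5 without WT replicate 1, and was 3 to 5 over all such omissions. In the order of levels, 4 genes changed place per kilobase of gene interval, 4 over all 13 libraries and 4 per kilobase of merged exons. Counting depth limits *Zp1*, *Oosp1* and *Bmp15*, which cannot be told from 0 in most libraries.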
